A study of Mus musculus with 8 samples.

Results

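The genes that rearrange antigen receptor DNA, together with the genes that mark early B cells, were followed across 8 pooled libraries of trafficked maternal cells and recipient cells from mouse pups. The group was fixed by name and holds 9 genes, namely Rag1, Rag2, Dntt, Igll1, Vpreb3, Ebf1, Pax5, Cd79a and Cd79b, out of 52784 genes in the deposited table and 25066 with at least 1 count in any library. All 9 had counts in at least 1 library.

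B6 dams carrying CD11c-DTR were mated with BALB/c males, and maternal and recipient cells were harvested from the whole bodies of their F1 pups at 1 week of age. On embryonic day 13 dams were injected with saline or with diphtheria toxin (DT) at 5 ng/g. On embryonic day 14 every fetus of an IUT group received 5000000 bone marrow mononuclear cells into the liver, from B6 donors in mIUT and from BALB/c donors in pIUT. The 4 treatments were uninjected pups, DC control (saline) mIUT, DC control (saline) pIUT and DC-depleted (DT) pIUT, and each gave 1 library of maternal cells, sorted with H2K-b antibody, and 1 library of recipient cells, sorted with H2K-d antibody.

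Several limits of the model bear on these libraries. The diphtheria toxin receptor is driven by the CD11c promoter in the dam, so that DT acts on CD11c+ cells for a short time. F1 cells carry both H2K-b and H2K-d, B6 donor cells share H2K-b with the dam and BALB/c donor cells share H2K-d with the F1 pup, so the antibody that selected a library does not by itself set donor cells apart. Uninjected pups came from dams given DT or saline. Several pups were pooled in each library, by the study's account more for uninjected pups than for any IUT group. There were no replicate libraries, so a difference between treatments is a difference between libraries and carries no p-value.

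B cells and T cells build their receptors by cutting and joining gene segments. The RAG1 and RAG2 proteins together make the cut, and terminal deoxynucleotidyl transferase, encoded by Dntt, adds bases without a template before the ends are joined. A B-cell precursor that has joined a heavy chain pairs it with a surrogate light chain, made of the products of Igll1 (lambda 5) and Vpreb1, and signals through the CD79A and CD79B chains. EBF1 and PAX5 are the transcription factors that set and keep B-cell identity. In the mouse, Dntt is scarce in fetal lymphocyte precursors and comes up after birth, so receptors made before birth carry few inserted bases. Rag1, Rag2, Igll1 and Vpreb1 are turned off in mature B cells, while Pax5, Cd79a and Cd79b stay on. Thymocytes use Rag1, Rag2 and Dntt as well, and mark the stage of recombination with Ptcra.

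Heavy-chain junctions are where bases added without a template can be seen in sequence, and the most abundant productive IGH clonotype with both junctions resolved is given for each library. Each sequence runs 5′ to 3′ from the codon of the conserved cysteine that opens CDR3 to that of the conserved tryptophan that closes it. Capitals mark bases that MiXCR aligned to no V, D or J segment, that is, the inserted bases. These are rearranged sequences of the Igh locus and have no single position in the genome.
Maternal, uninjected (IGHV1-52, IGHD2-4, IGHJ1): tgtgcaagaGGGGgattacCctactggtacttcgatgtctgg
Recipient, uninjected (IGHV1-52, IGHD2-4, IGHJ1): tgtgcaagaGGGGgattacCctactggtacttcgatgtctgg
Maternal, DC control mIUT (IGHV14-1, IGHD2-3, IGHJ2): tgtaatggttactactttgactactgg
Recipient, DC control mIUT (IGHV1-62-2, IGHD1-1, IGHJ3): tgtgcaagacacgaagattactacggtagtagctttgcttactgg
Maternal, DC control pIUT (IGHV5-6, IGHD2-4, IGHJ3): tgtgcaagacatagGtactgg
Recipient, DC control pIUT (IGHV5-4, IGHD2-4, IGHJ3): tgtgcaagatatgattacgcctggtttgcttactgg
Maternal, DC-depleted pIUT (IGHV1-55, IGHD3-2, IGHJ2): tgtgcaagctcaggctactactgg
Recipient, DC-depleted pIUT (IGHV1-77, IGHD1-1, IGHJ4): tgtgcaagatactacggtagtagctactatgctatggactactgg

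The leading clonotype of each uninjected library held 5 inserted bases, 4 at the V-D junction and 1 at the D-J junction. Of the 6 leading clonotypes after IUT, 5 held 0 inserted bases, and that of maternal cells after DC control pIUT held 1. Both uninjected libraries had the same leading CDR3, inserted bases included, with a clone count of 1033 reads in maternal cells and 982 reads in recipient cells.

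Some libraries stood apart from the others or went against their labels, and these values precede the results. Total counts ranged from 38543457 to 47965130 per library. The recipient uninjected library had at least 10 counts for 9125 genes and the maternal DC control mIUT library for 10016, against 13009 to 16231 in the other 6. Of genes at 10 CPM or more in all 7 other libraries, 9.51% were under 1 CPM in the recipient uninjected library and 4.86% in the maternal DC control mIUT library, against at most 1.26% elsewhere. Heavy-chain CDR3 sequences with at least 3 inserted bases were shared by 1 pair of libraries, the uninjected maternal and recipient pair. That pair shared 2 CDR3 sequences, which were 0.119% of 1683 in maternal cells and 5.13% of 39 in recipient cells and held 12.8% of the recipient IGH reads. The 4 Y-linked genes Ddx3y, Eif2s3y, Kdm5d and Uty summed to 118, 29.3 and 30.0 CPM in maternal cells of DC control mIUT, DC control pIUT and DC-depleted pIUT, and to 0 in maternal cells of uninjected pups, although a dam has no Y chromosome. In each maternal IUT library Kdm5d had 0 counts, as did Ddx3y in DC control mIUT. The recipient uninjected library had Uty at 64.6 CPM, Eif2s3y at 6 counts and Ddx3y and Kdm5d at 0. All 4 genes had counts in the other recipient libraries. H2-Ea, an MHC gene that B6 mice do not express, stood at 62.4% and 50.7% of the H2-Eb1 count in maternal cells of DC control mIUT and DC-depleted pIUT, at 0 in those of uninjected pups and DC control pIUT, and at 0.149% in the library labelled recipient uninjected. In the other recipient libraries it ranged from 30.3% to 48.0%. The leukocyte gene Ptprc was at 2.63 CPM in maternal cells of DC-depleted pIUT and between 70.2 and 459 CPM in the other 7 libraries. The part of these features in the results that follow was not tested. Comparisons of DC-depleted with DC control pIUT use neither the recipient uninjected nor the maternal DC control mIUT library.

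Levels are given as CPM, that is, counts scaled by library total and TMM factor. They are not divided by gene length and are compared between libraries only. A library with 0 counts was set to 3 counts, which is 0.0547 to 0.105 CPM, for a fold change, and the fold is then a bound. A gene was called higher or lower in a pair of libraries when it differed by at least 4-fold and had at least 10 counts in the higher library. Intervals are at 95% and cover counting error only. In sorted cells measured in bulk, fewer cells of a type and less RNA per cell cannot be told apart.

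**Figure D1:**
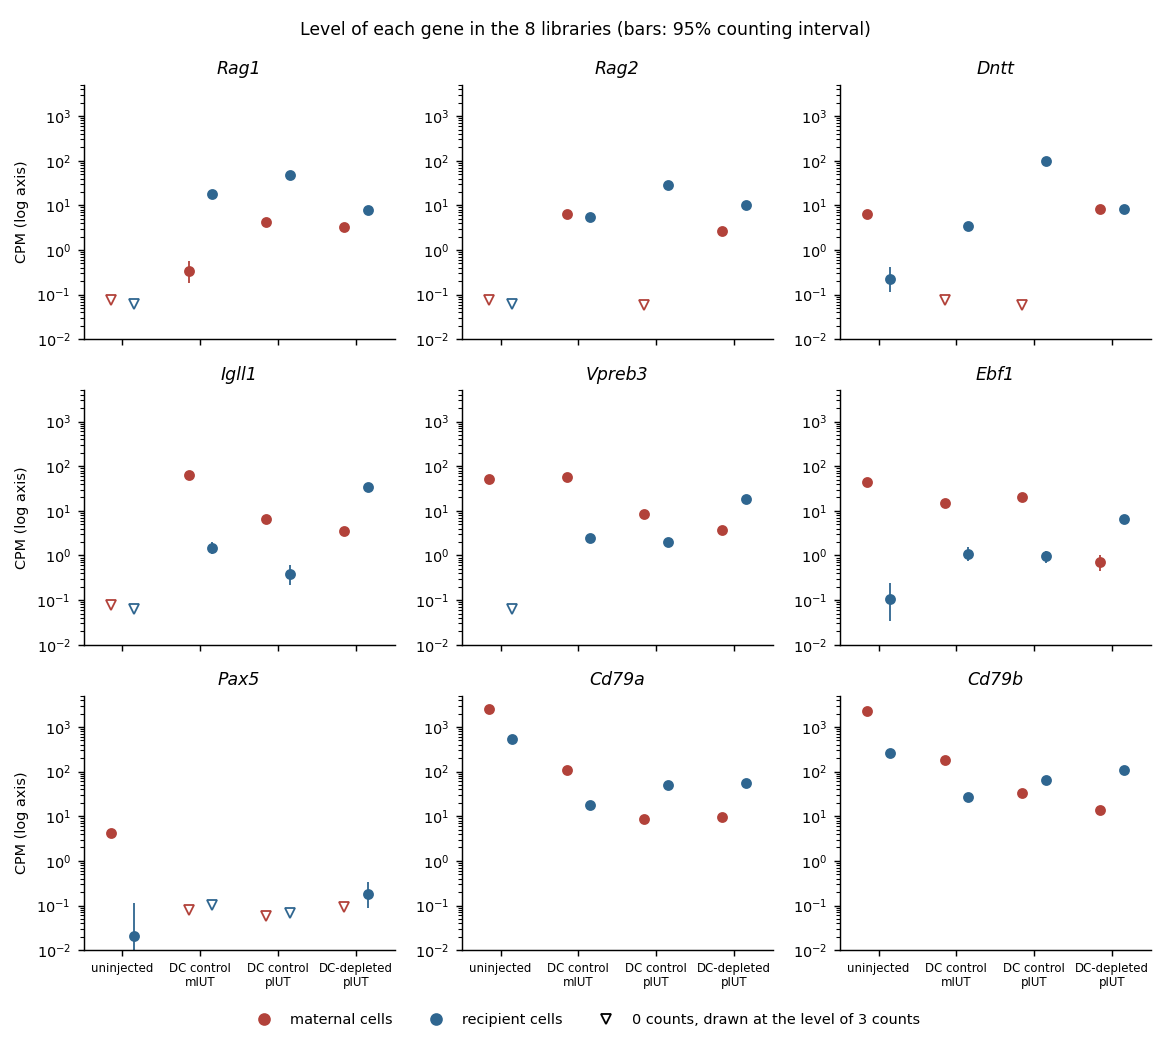
Level of each of the 9 genes in CPM (log axis) in the 8 libraries, maternal cells in red and recipient cells in blue. Bars are 95% counting intervals, and open triangles mark 0 counts, drawn at the level of 3 counts. Rag1, Rag2 and Igll1 had 0 counts in both uninjected libraries, in which Cd79a and Cd79b had their highest levels.

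The recombinase genes had 0 counts in both uninjected libraries, and at least 1 of the pair had counts in every IUT library. Rag1 (chr2:101468603-101479877, minus strand, GRCm39) had 0 counts in maternal and recipient cells of uninjected pups. In maternal cells it had 13 counts (0.336 CPM) after DC control mIUT, 218 (4.31 CPM) after DC control pIUT and 108 (3.27 CPM) after DC-depleted pIUT. In recipient cells it had 508 (17.7 CPM), 2166 (48.0 CPM) and 431 (7.86 CPM). Within each IUT treatment the recipient library was higher, and recipient cells of DC control pIUT were highest of all 8.

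Rag2 lies beside Rag1 (chr2:101455063-101462874, plus strand), and the ends of these convergent genes are 5728 bases apart. It had 0 counts in both uninjected libraries and also in maternal cells of DC control pIUT. Maternal cells had 244 counts (6.30 CPM) after DC control mIUT and 86 (2.60 CPM) after DC-depleted pIUT. Recipient cells had 156 (5.44 CPM) after DC control mIUT, 1328 (29.4 CPM) after DC control pIUT and 547 (9.98 CPM) after DC-depleted pIUT. The partner genes did not keep the same order of libraries. Maternal cells of DC control mIUT had the lowest Rag1 level of the IUT libraries, whereas their Rag2 level was 1.16-fold that of recipient cells of the same pups, with an interval of 0.944 to 1.43 that spans no difference. Maternal cells of DC control pIUT had 218 counts of Rag1 and 0 of Rag2. Across the 8 libraries, Pearson's r of log2(CPM + 1) between Rag1 and Rag2 was 0.74, given as a description, since the 8 libraries come in pairs from the same pups.

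Relative to uninjected recipient cells, Rag1 was at least 286-fold higher after DC control mIUT, at least 773-fold higher after DC control pIUT and at least 127-fold higher after DC-depleted pIUT. For Rag2 the bounds were 87.7-fold, 474-fold and 161-fold. Between recipient cells of DC-depleted and DC control pIUT, Rag1 was 6.10-fold lower (interval 5.50 to 6.78) with DC depletion and Rag2 was 2.95-fold lower (2.67 to 3.26), the latter inside the 4-fold limit. In maternal cells of the same pair, Rag1 was 1.32-fold lower (1.04 to 1.68) with DC depletion, while Rag2 was at least 43.9-fold higher.

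Proteins that work with the recombinase were counted as a list of 13, of which Hmgb1 and Hmgb2 help RAG bind DNA and the others, such as Prkdc, Dclre1c (Artemis), Xrcc5, Xrcc6 and Lig4, process and join the ends. Unlike Rag1 and Rag2, these act in most cells. Between recipient cells of DC control pIUT and uninjected pups, 5 of the 13 were called higher and 1 lower, beside 45.4% and 13.4% of all genes tested, with a median log2 fold change of 1.10 beside 1.35 over all genes. Between recipient cells of DC-depleted and DC control pIUT, 0 were called higher and 1 lower (Lig4, 1.71 against 22.0 CPM), beside 14.6% and 7.15% of all genes, with a median of -0.50 beside 0.10 over all genes. In the maternal pair of this contrast 3 were called higher and 0 lower, beside 24.9% and 28.4%, with a median of 0.47 beside -0.07. Against uninjected maternal cells, 2 were called higher and 6 lower after DC control mIUT (median -2.51 beside -0.60). After DC control pIUT the counts were 0 and 2 (-0.30 beside 0.05), and after DC-depleted pIUT 2 and 2 (-0.28 beside -0.02). The genes of the list tested in these comparisons numbered 12, 12 and 13. Over all genes, 18.0% and 36.6%, 24.3% and 23.7%, and 23.6% and 26.3% were called higher and lower. Polm, a polymerase related to TdT, was at 44.4 and 24.5 CPM in the uninjected recipient and maternal libraries, and between 0 and 12.1 CPM in the 6 IUT libraries.

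Dntt (chr19:41017714-41047964, plus strand) did not follow Rag1 and Rag2 in every library. In maternal cells it had 254 counts (6.53 CPM) in uninjected pups, 0 after DC control mIUT, 0 after DC control pIUT and 276 (8.36 CPM) after DC-depleted pIUT. In recipient cells it had 11 counts (0.227 CPM), 100 (3.49 CPM), 4527 (100.2 CPM) and 453 (8.26 CPM) in the same order. Recipient cells of DC control pIUT had the highest level of the 8. Maternal cells of uninjected pups held Dntt without any count of Rag1 or Rag2.

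Relative to uninjected recipient cells, Dntt was 15.1-fold higher (8.21 to 31.7) after DC control mIUT, 436-fold higher (246 to 883) after DC control pIUT and 35.96-fold higher (20.1 to 73.3) after DC-depleted pIUT. In maternal cells it was at least 84.2-fold lower after DC control mIUT and at least 110-fold lower after DC control pIUT than in uninjected pups, and 1.28-fold higher (1.08 to 1.52) after DC-depleted pIUT. With DC depletion, Dntt was 12.1-fold lower (11.01 to 13.4) in recipient cells and at least 141-fold higher in maternal cells than in DC control pIUT. Within DC-depleted pIUT the maternal and recipient levels were 1.01-fold apart (0.868 to 1.18), with a log2 difference of 0.02 that turned to -0.61 with library-size scaling.

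Thymocyte genes stood beside Dntt and the recombinase genes. Ptcra, the surrogate alpha chain of thymocytes, was at 3.94, 71.4 and 14.1 CPM in recipient cells of DC control mIUT, DC control pIUT and DC-depleted pIUT. In maternal cells it was at 11.6, 0.297 and 14.02 CPM in the same order, and in uninjected pups it was at 0 in maternal and 0.331 CPM in recipient cells. Recipient cells of DC control pIUT had the highest level of Ptcra, as they had of Rag1, Rag2 and Dntt. All 12 genes of the thymocyte and T-cell list were above 0 in the 3 recipient IUT libraries. Their summed level was 4561 CPM in DC control pIUT, against 1037 CPM with DC depletion and 766 CPM after DC control mIUT. The whole list did not follow Rag1 and Rag2 in uninjected pups, in which it summed to 2146 CPM in maternal cells, second to recipient cells of DC control pIUT, and to 776 CPM in recipient cells. In maternal cells after IUT it summed to 492, 178 and 433 CPM. The part of thymocytes in the levels of Rag1, Rag2 and Dntt was not tested.

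**Figure D2:**
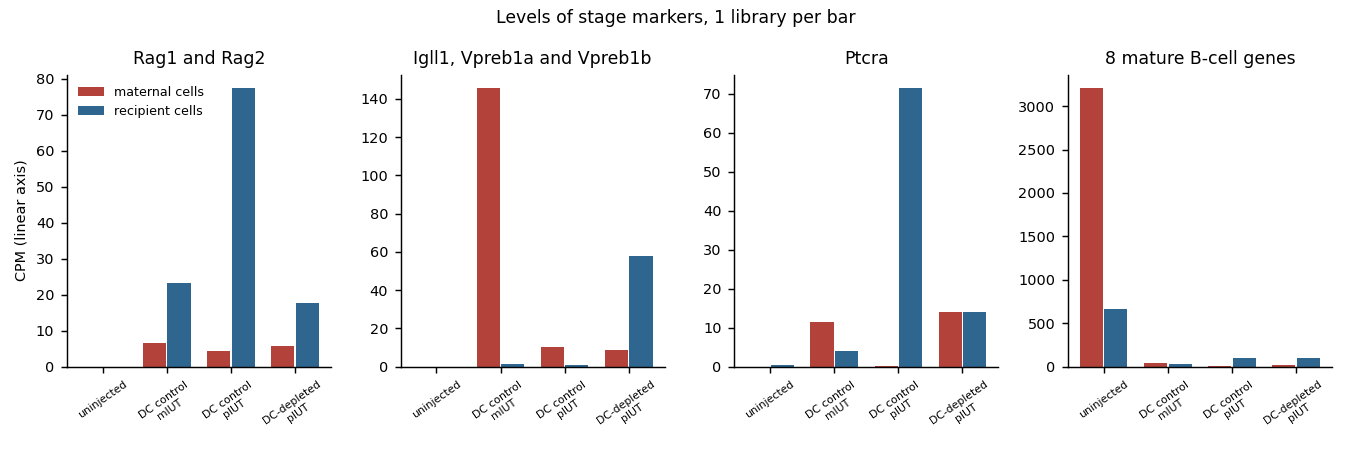
CPM (linear axes) of Rag1 and Rag2 summed, of the surrogate light chain genes summed, of the thymocyte gene Ptcra, and of 8 mature B-cell genes summed, with 1 bar per library, maternal cells in red and recipient cells in blue. The sum of Rag1 and Rag2 (77.4 CPM) and the level of Ptcra (71.4 CPM) were highest in recipient cells of DC control pIUT, the surrogate light chain sum (145 CPM) in maternal cells of DC control mIUT, and the mature B-cell sum (3203 CPM) in uninjected maternal cells.

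Junctions give a second readout, of inserted bases, made when a receptor was joined rather than when the RNA was taken. In uninjected pups, 12.5% of maternal IGH clonotypes (169 of 1353, Wilson interval 10.8 to 14.4%) and 7.50% of recipient IGH clonotypes (3 of 40, 2.58 to 19.9%) lacked an inserted base between V and D. In recipient cells the share was 79.2% after DC control mIUT (38 of 48, 65.7 to 88.3%), 80.0% after DC control pIUT (92 of 115, 71.8 to 86.3%) and 69.2% after DC-depleted pIUT (229 of 331, 64.0 to 73.9%). Maternal cells of DC-depleted pIUT had 78.6% (11 of 14, 52.4 to 92.4%). Maternal cells of DC control mIUT and DC control pIUT had few clonotypes, with 6 of 7 and 5 of 5 lacking an insertion. The intervals of the uninjected libraries did not overlap those of any IUT library. Clonotypes of 1 library are not replicates, so these shares are descriptions of libraries and were not tested between treatments.

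Between D and J the shares without insertion were 27.6% and 17.5% in uninjected maternal and recipient cells, and between 80.0% and 100% in the 6 IUT libraries. Over both junctions together, the median number of inserted bases was 6 in maternal and 7 in recipient cells of uninjected pups and 0 in all 6 IUT libraries. Of the IGH clonotypes with both junctions resolved, 4.73% and 2.50% lacked any inserted base in the uninjected libraries, against 63.7% to 85.7% after IUT.

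**Figure D3:**
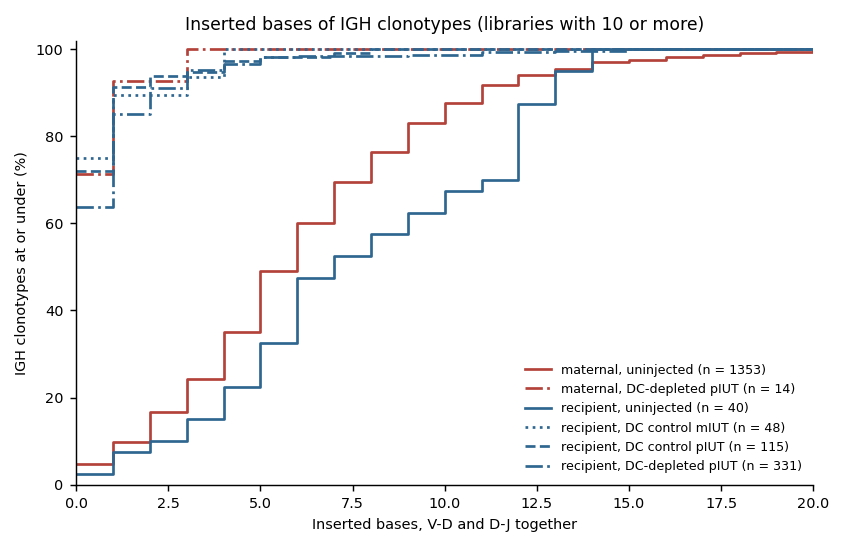
Cumulative percentage of IGH clonotypes by number of inserted bases at the V-D and D-J junctions together, for the 6 libraries with 10 or more such clonotypes. The 2 uninjected libraries start at 4.73% and 2.50% with 0 inserted bases, and the 4 IUT libraries start between 63.7% and 75.0%.

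The share of IGH junctions without insertion did not follow the Dntt level of the same library. The uninjected recipient library had 11 counts of Dntt and the lowest share without V-D insertion, while recipient cells of DC control pIUT had 4527 counts and 80.0%. T-cell receptor junctions were ordered differently. Among recipient cells after IUT, 89.5% of TRB clonotypes lacked a V-D insertion in DC control mIUT (137 of 153, 83.7 to 93.5%), 75.04% in DC-depleted pIUT (463 of 617, 71.5 to 78.3%) and 61.7% in DC control pIUT (1288 of 2089, 59.6 to 63.7%). Dntt stood at 3.49, 8.26 and 100.2 CPM in these libraries, so the order of the TRB shares was the reverse of the order of the Dntt levels over these 3 libraries. The uninjected recipient library did not follow that order, with the lowest recipient Dntt level (0.227 CPM) and 36.4% (4 of 11, 15.2 to 64.6%) without a V-D insertion. Maternal cells of uninjected pups had 34.5% (106 of 307, 29.4 to 40.0%) and those of DC-depleted pIUT 67.0% (128 of 191, 60.1 to 73.3%). In maternal cells of DC control mIUT and DC control pIUT, which had 0 counts of Dntt, 2 of 4 and 2 of 7 TRB clonotypes lacked a V-D insertion, and 0 of 4 and 0 of 7 were free of inserted bases at V-D and D-J together. At the D-J junction of TRB, the recipient libraries after IUT stood at 86.9%, 82.7% and 71.7% in the same order of treatments, with the uninjected recipient library at 90.9% (10 of 11).

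TRA clonotypes, which join V to J directly, lacked an insertion in 40.5%, 34.3% and 48.1% of recipient clonotypes after DC control mIUT, DC control pIUT and DC-depleted pIUT, and in 22.6% of maternal clonotypes of uninjected pups. Kappa light chains are joined after Dntt has fallen in B-cell precursors, and IGK shares lay between 84.0% and 96.1% in all 8 libraries. Weighted by clone count, the share was 95.6% in place of 84.0% in uninjected maternal cells. MiXCR assigns bases to segments by alignment, so a base that was inserted and matches the segment by chance counts as aligned, and a base changed by mutation at the end of a segment can count as inserted.

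**Figure D4:**
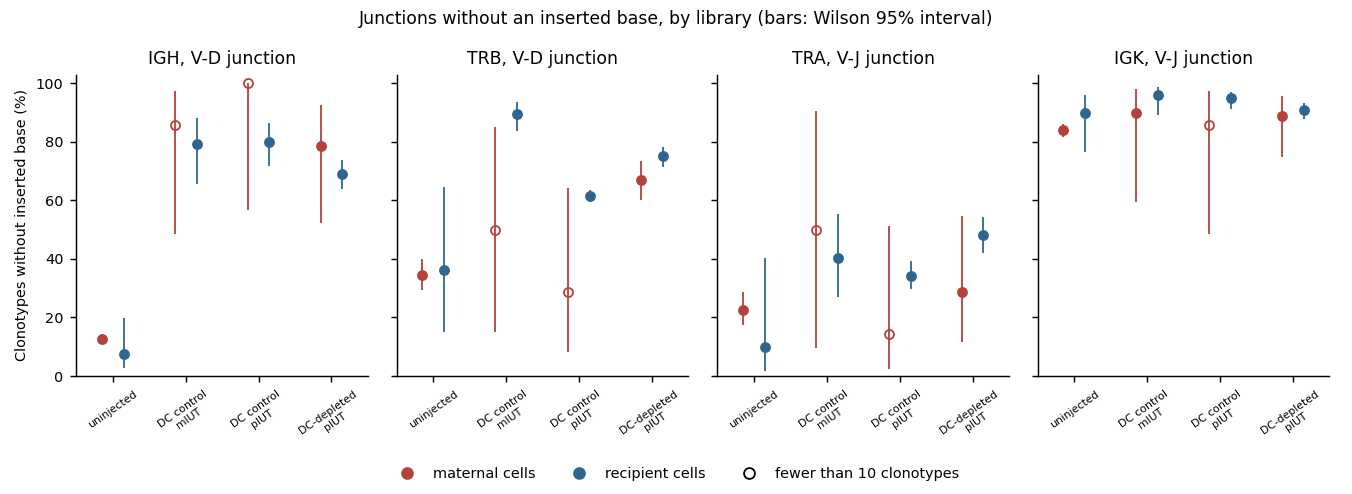
Percentage of clonotypes without an inserted base at the V-D junction of IGH and TRB and the V-J junction of TRA and IGK, with Wilson 95% intervals, maternal cells in red and recipient cells in blue; open circles mark fewer than 10 clonotypes. IGH was at 12.5% and 7.50% in uninjected pups and at 69.2% or more after IUT, while IGK was at 84.0% or more in all 8 libraries.

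The surrogate light chain was found in IUT libraries alone, with the treatments in a different order in maternal and recipient cells. Igll1 (chr16:16678535-16681849, minus strand) had 0 counts in both uninjected libraries. In maternal cells it had 2480 counts (64.0 CPM) after DC control mIUT, 329 (6.504 CPM) after DC control pIUT and 117 (3.54 CPM) after DC-depleted pIUT. In recipient cells it had 43 (1.499 CPM), 17 (0.376 CPM) and 1917 (34.97 CPM). Maternal cells of DC control mIUT and recipient cells of DC-depleted pIUT were thus the 2 libraries above 10 CPM.

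Igll1 was at least 831-fold, 84.4-fold and 46.0-fold higher in maternal cells of DC control mIUT, DC control pIUT and DC-depleted pIUT than in uninjected maternal cells. In recipient cells the bounds were 24.2-fold, 6.07-fold and 564-fold. DC-depleted pIUT exceeded DC control pIUT by 92.3-fold (57.9 to 160) in recipient cells, the largest difference of the 9 genes in that pair, and was 1.83-fold lower (1.48 to 2.29) in maternal cells. Within DC control mIUT, maternal cells exceeded recipient cells by 42.6-fold (31.6 to 59.2), and within DC-depleted pIUT recipient cells exceeded maternal cells by 9.86-fold (8.19 to 11.999).

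The gene whose pattern over the 8 libraries was most like that of Igll1 was Vpreb1a (Vpreb1), with a Pearson r of 0.97 among 12045 genes that reached 10 CPM in a library. Vpreb1 lies 4415 bases from Igll1 on the same strand and encodes the partner of Igll1 in the surrogate light chain. It was at 44.9, 2.15 and 3.09 CPM in maternal cells and 0, 0.531 and 18.5 CPM in recipient cells after DC control mIUT, DC control pIUT and DC-depleted pIUT, and at 0 in both uninjected libraries. Its near-identical copy Vpreb1b (Vpreb2) was at 36.5, 1.74 and 1.85 CPM in maternal cells and at 0, 0 and 4.14 CPM in recipient cells. Reads could be split between these copies, so their separate levels are uncertain. Hoga1 (r = 0.96) and Itih3 (r = 0.96), both of them liver genes, came next. With a pseudocount of 0.1 CPM in place of 1 CPM, 1 of these 3 genes stayed among the 3 most like Igll1.

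Because Igll1 and Vpreb1 are neighbours and their levels moved together, their promoter windows are shown, from 250 bases before to 50 bases after the RefSeq start (RefSeq table on GRCm38.p6; each sequence was matched once, without mismatch, to GRCm39, whose positions are given). Capitals mark 2 motifs, searched on both strands, namely CAGGTG, the E-box bound by the E2A protein (Tcf3), and CCCNNGGG, the core bound by EBF1. The motifs do not overlap each other in these windows.
Igll1, chr16:16681800-16682099, minus strand: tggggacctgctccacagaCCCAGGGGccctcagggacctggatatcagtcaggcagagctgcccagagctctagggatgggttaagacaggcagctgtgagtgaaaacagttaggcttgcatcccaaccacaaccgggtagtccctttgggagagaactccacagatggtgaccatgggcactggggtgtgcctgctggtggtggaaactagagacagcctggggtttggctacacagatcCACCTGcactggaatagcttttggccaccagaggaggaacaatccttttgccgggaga
Vpreb1, chr16:16687070-16687369, minus strand: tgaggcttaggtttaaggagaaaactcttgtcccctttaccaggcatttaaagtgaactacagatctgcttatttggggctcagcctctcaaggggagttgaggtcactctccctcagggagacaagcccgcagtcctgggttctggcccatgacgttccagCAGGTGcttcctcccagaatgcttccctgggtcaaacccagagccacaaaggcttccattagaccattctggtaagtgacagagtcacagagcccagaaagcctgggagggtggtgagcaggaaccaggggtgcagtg

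Both windows hold 1 match to CAGGTG, which 20.2% of 32851 RefSeq promoter windows of this length hold. Igll1 holds 1 match to CCCNNGGG and Vpreb1 holds 0, against 13.7% of all windows. A match is a run of letters and not a measured site. Tcf3 was between 50.4 and 169 CPM in all 8 libraries.

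Vpreb3 (chr10:75778891-75785496, plus strand) encodes a partner of immunoglobulin chains in the B-cell endoplasmic reticulum, made by precursors and by some mature B cells. It differed from Igll1 in uninjected maternal cells, where it had 2026 counts (52.1 CPM). After IUT, maternal cells had 2218 counts (57.3 CPM) in DC control mIUT, 419 (8.28 CPM) in DC control pIUT and 120 (3.63 CPM) in DC-depleted pIUT. Recipient cells had 0 counts in uninjected pups, 70 (2.44 CPM) after DC control mIUT, 92 (2.04 CPM) after DC control pIUT and 996 (18.2 CPM) after DC-depleted pIUT. The 2 recipient DC control libraries were close, and DC-depleted pIUT was 8.91-fold higher (7.20 to 11.2) than DC control pIUT. In maternal cells Vpreb3 was 6.28-fold lower (5.65 to 6.999) after DC control pIUT and 14.3-fold lower (11.9 to 17.4) after DC-depleted pIUT than in uninjected pups, and 1.10-fold higher (1.04 to 1.17) after DC control mIUT, where library-size scaling turned the log2 difference from 0.14 to -0.08.

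The Igll1 count was set against the Cd79a count of the same library to compare libraries that hold different amounts of B-cell RNA, and gene length does not enter a comparison of this ratio between libraries. Igll1 counts were 59.9%, 74.6% and 37.4% of Cd79a counts in maternal cells of DC control mIUT, DC control pIUT and DC-depleted pIUT. In recipient cells the values were 8.45%, 0.768% and 61.4%, and they were 0 in both uninjected libraries. Recipient cells of the DC control groups thus had the lowest values of the IUT libraries, and maternal DC control pIUT, which had 329 counts of Igll1, the highest. In that maternal library the CPM ratio of Cd79a to Cd79b was 0.265, against 0.525 to 0.772 in the other IUT libraries. Its top rank therefore depends on Cd79a as the divisor.

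Ebf1 (chr11:44508138-44898918, plus strand) had its highest levels in maternal cells. Maternal cells had 1726 counts (44.4 CPM) in uninjected pups, 593 (15.3 CPM) after DC control mIUT, 1037 (20.5 CPM) after DC control pIUT and 23 (0.697 CPM) after DC-depleted pIUT. Recipient cells had 5 (0.103 CPM), 31 (1.08 CPM), 43 (0.952 CPM) and 365 (6.66 CPM). DC-depleted pIUT was 29.3-fold lower (19.5 to 46.6) than DC control pIUT in maternal cells and 6.98-fold higher (5.09 to 9.83) in recipient cells. Among the other 8 genes, the pattern of Ebf1 was closest to that of Vpreb3 (r = 0.89).

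Pax5 (chr4:44524757-44710487, minus strand) had more than 10 counts in 1 library, maternal cells of uninjected pups, with 161 counts (4.14 CPM). It had 10 counts (0.182 CPM) in recipient cells of DC-depleted pIUT, 1 count in uninjected recipient cells and 0 in the other 5 libraries. In maternal cells the bounds against uninjected pups were 53.4-fold, 69.8-fold and 45.5-fold lower after DC control mIUT, DC control pIUT and DC-depleted pIUT. The 10 counts in recipient cells of DC-depleted pIUT were 8.002 times the level of the single count in uninjected recipient cells, with a counting interval of 1.26 to 383. The uninjected recipient library held 26045 counts of Cd79a beside this 1 count of Pax5, a known target of which is Cd79a.

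The 3 genes most like Pax5 were the kappa segments Igkv3-2 and Igkv6-13 and the gene model Gm42870 (r of 1.00 each after rounding), all near 0 outside uninjected maternal cells, as a gene seen in 1 library must give. Of the wider list of 14 early B-cell genes, which holds Blnk, Il7r and Foxo1 beside Vpreb1 and Vpreb2, 3, 3 and 4 were called higher and 5, 7 and 8 lower in maternal cells of DC control mIUT, DC control pIUT and DC-depleted pIUT against uninjected pups. Over all genes tested, the shares in these comparisons were 18.0%, 24.3% and 23.6% higher and 36.6%, 23.7% and 26.3% lower. In recipient cells 4, 4 and 7 of the list were called higher and 4, 4 and 3 lower, beside 45.0%, 45.4% and 47.2% higher and 17.9%, 13.4% and 11.0% lower over all genes. Between DC-depleted and DC control pIUT 3 were called higher and 0 lower in recipient cells, beside 14.6% and 7.15%, and 4 higher and 3 lower in maternal cells, beside 24.9% and 28.4%. Between maternal and recipient cells, 4 were called higher and 1 lower in uninjected pups (median log2 difference 1.74 beside 0.79 over all genes). The counts were 6 and 4 after DC control mIUT (1.42 beside -0.66) and 2 and 4 after DC control pIUT (-0.89 beside -0.27). The genes of the list tested in these comparisons numbered 11, 14 and 13. Over all genes, 41.2% and 15.3%, 13.6% and 35.9%, and 19.1% and 25.3% were called higher and lower. Within DC-depleted pIUT, 10 of the 14 were called lower in maternal than in recipient cells and 0 higher, beside 28.8% and 9.6% of all genes, with a median log2 difference of -2.92 beside -0.65 over all genes. In the same pair of libraries 3 of 4 leukocyte genes were called lower, with a median of -3.76, and 4 of 5 erythroid genes higher, with a median of 2.54. Their part in the values of the list and of the members was not tested. Il7r, the interleukin 7 receptor, was at 64.3 CPM in uninjected maternal cells and between 0 and 8.92 CPM in the other 7 libraries. In uninjected maternal cells Rag1, Rag2, Igll1, Vpreb1 and Vpreb2 had 0 counts, and the T-cell gene Cd3e was at 373 CPM. The cell type behind the Il7r level was not tested.

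Cd79a and Cd79b encode the signalling chains of the pre-B and B-cell receptor. Cd79a (chr7:24596740-24601622, plus strand) had 96352 counts (2476 CPM) in maternal and 26045 (539 CPM) in recipient cells of uninjected pups. Maternal cells had 4138 (107 CPM), 441 (8.72 CPM) and 313 (9.48 CPM) after DC control mIUT, DC control pIUT and DC-depleted pIUT. Recipient cells had 509 (17.7 CPM), 2214 (49.0 CPM) and 3121 (56.9 CPM). No IUT library reached the level of either uninjected library.

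Cd79b (chr11:106202167-106205588, minus strand) had 87145 counts (2239 CPM) in maternal and 12407 (257 CPM) in recipient cells of uninjected pups. After IUT it had 6948 (179 CPM), 1665 (32.9 CPM) and 456 (13.8 CPM) in maternal cells and 779 (27.2 CPM), 2867 (63.5 CPM) and 5940 (108 CPM) in recipient cells. Its pattern over the 8 libraries was close to that of Cd79a (r = 0.97), and Cd79a was among the 3 genes most like it, after Slc50a1 and Tnfrsf18. The genes most like Cd79a were immunoglobulin light chain genes, namely Iglc3, Igkv12-46 and Igkc, with r from 0.98 to 0.99.

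Relative to uninjected pups, Cd79a was 23.2-fold, 284-fold and 261-fold lower in maternal cells and 30.3-fold, 10.99-fold and 9.46-fold lower in recipient cells of DC control mIUT, DC control pIUT and DC-depleted pIUT. Cd79b was 12.5-fold, 68.0-fold and 162-fold lower in maternal cells, and 9.44-fold, 4.04-fold and 2.37-fold lower in recipient cells. Between DC-depleted and DC control pIUT, the Cd79a levels of recipient cells were 1.16-fold apart (1.10 to 1.23), higher with DC depletion. Those of maternal cells were 1.09-fold apart (0.938 to 1.26), and the log2 difference turned from 0.12 to -0.03 with DESeq2 size factors and to -0.46 with library-size scaling. Cd79b was 2.38-fold lower (2.15 to 2.65) in maternal cells and 1.71-fold higher (1.63 to 1.79) in recipient cells.

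Mature B-cell genes stood beside Cd79a and Cd79b. The 8 genes Ms4a1, Cd22, Cr2, Fcer2a, Fcrla, Cd72, Fcmr and Cxcr5 summed to 3203 CPM in maternal and 658 CPM in recipient cells of uninjected pups. After IUT they summed to 42.3, 6.94 and 17.0 CPM in maternal cells and to 29.1, 94.99 and 99.2 CPM in recipient cells. Cr2, a receptor of mature follicular and marginal zone B cells, was at 14.2 and 15.4 CPM in the uninjected libraries and at 0 in all 6 IUT libraries. Ighd, the delta chain that mature B cells add to Ighm, was at 15.9% and 27.1% of the Ighm count in uninjected maternal and recipient cells and between 0.0165% and 5.80% after IUT. Of the 7 genes that work with CD79 chains (Ighm, Ighd, Igkc, Syk, Lyn, Btk and Blk), 5, 6 and 7 were called lower in maternal cells of DC control mIUT, DC control pIUT and DC-depleted pIUT, and 3, 3 and 2 in recipient cells, while 0 were called higher in maternal cells and 1 in each recipient library. Over all genes 36.6%, 23.7% and 26.3% were called lower in maternal and 17.9%, 13.4% and 11.0% in recipient cells, and 18.0%, 24.3% and 23.6% higher in maternal and 45.0%, 45.4% and 47.2% in recipient cells. The median log2 fold changes of the 7 genes were -3.25, -5.76 and -8.30 in maternal and -0.27, -1.87 and -1.62 in recipient cells, beside -0.60, 0.05 and -0.02, and 1.21, 1.35 and 1.69, over all genes.

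The comparisons with uninjected pups share their control library within an origin, so their counts are set side by side and are not independent. In maternal cells of DC control mIUT, 3 members were called higher and 4 lower, beside 18.0% and 36.6% of all genes tested. After DC control pIUT 2 were called higher and 5 lower, beside 24.3% and 23.7%. After DC-depleted pIUT 3 were called higher and 5 lower, beside 23.6% and 26.3%. With library-size scaling Rag1, with 13 counts, was no longer called after DC control mIUT (log2 1.91 in place of 2.12). The genes called higher were Rag1, Rag2 and Igll1 after DC control mIUT and DC-depleted pIUT, and Rag1 and Igll1 after DC control pIUT. Cd79a, Cd79b and Pax5 were called lower in all 3. In the same order of treatments, 0, 1 and 4 of 4 leukocyte genes were called lower (medians -0.28, -1.84 and -4.71). Of the thymocyte and T-cell genes 7, 9 and 7 were called lower and 1, 0 and 2 higher (medians -2.67, -3.69 and -2.80). Of 5 hepatocyte genes 3, 2 and 3 were called higher and 1, 0 and 0 lower (medians 4.23, 1.92 and 2.51). The part of these cell types in the members' values was not tested.

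In recipient cells 6 members were called higher and 2 lower after DC control mIUT, beside 45.0% and 17.9% of all genes. After DC control pIUT 6 were called higher and 2 lower, beside 45.4% and 13.4%. With library-size scaling Cd79b was no longer called lower after DC control pIUT. After DC-depleted pIUT 7 were called higher and 1 lower, beside 47.2% and 11.0%. The median log2 fold change of all genes was 1.21, 1.35 and 1.69 in these comparisons, and that of the members 4.26, 4.10 and 5.98. Pax5, with 10 counts against 1, was called after DC-depleted pIUT and was not with a prior count of 2 (log2 1.90 in place of 3.0). Rag1, Rag2, Dntt, Igll1, Vpreb3 and Ebf1 were called higher in all 3, and the counts of these 6 in the library labelled recipient uninjected ranged from 0 to 11. In the same order of treatments, 5, 5 and 2 of 5 hepatocyte genes were called lower and 0, 0 and 1 higher (medians -5.45, -8.91 and -0.06). Of 5 erythroid genes 5, 2 and 4 were called lower (medians -9.67, -1.75 and -2.47). Of 12 thymocyte and T-cell genes 3, 7 and 3 were called higher and 2, 0 and 1 lower (medians -0.46, 2.13 and 0.22). The part of these cell types in the members' values was not tested.

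Between DC-depleted and DC control pIUT, 2 members were called higher (Rag2 and Dntt) and 1 lower (Ebf1) in maternal cells, beside 24.9% and 28.4% of all genes. In this maternal pair 3 of 4 leukocyte genes were called lower and 0 higher (median log2 fold change -3.22 beside -0.07 over all genes), and of 11 thymocyte and T-cell genes tested 5 were called higher and 1 lower (median 0.94). In recipient cells 3 were called higher (Igll1, Vpreb3 and Ebf1) and 2 lower (Rag1 and Dntt), beside 14.6% and 7.15%. Of the 12 thymocyte and T-cell genes, 9 were called lower and 0 higher in this recipient pair, with a median log2 fold change of -2.32 beside 0.10 over all genes. All 5 hepatocyte genes were called higher in it, with a summed level of 553 CPM against 4.98 CPM. The part of these cell types in the members' values was not tested.

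**Figure D5:**
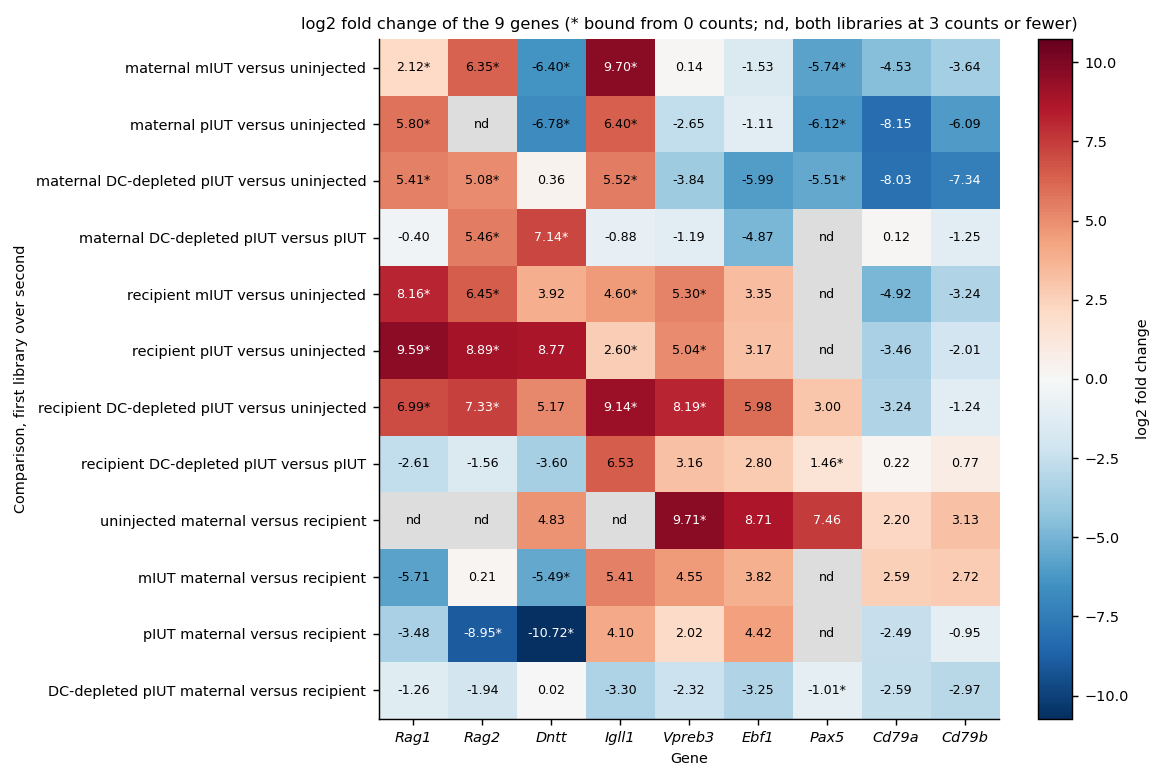
log2 fold change of the 9 genes in 12 comparisons, first library over second; red is higher and blue is lower in the first library. An asterisk marks a bound set by 0 counts, and nd marks a pair in which both libraries had 3 counts or fewer. In recipient cells of DC-depleted against DC control pIUT, Igll1 (6.53), Vpreb3 (3.16) and Ebf1 (2.80) were higher while Rag1 (-2.61) and Dntt (-3.60) were lower.

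Maternal and recipient cells of the same pups were then compared. In uninjected pups 6 members were called higher in maternal cells and 0 lower, beside 41.2% and 15.3% of all genes. After DC control mIUT 5 were called higher and 2 lower, beside 13.6% and 35.9%. After DC control pIUT 3 were called higher and 4 lower, beside 19.1% and 25.3%. After DC-depleted pIUT 0 were called higher and 5 lower, beside 9.6% and 28.8%. Igll1, Vpreb3 and Ebf1 were higher in maternal cells in both DC control groups and lower in DC-depleted pIUT. Of 5 hepatocyte genes, 4 and 5 were called higher in maternal cells in the DC control mIUT and pIUT pairs (medians 7.33 and 7.27) and 0 in the DC-depleted pair (median -0.68). Of 12 thymocyte and T-cell genes, 3, 12 and 5 were called lower in maternal cells in these pairs (medians -0.97, -4.89 and -1.74). The part of these cells in the members' values was not tested. For Ebf1 the ratios were 14.1-fold higher (9.87 to 21.0), 21.5-fold higher (15.9 to 29.9) and 9.52-fold lower (6.27 to 15.3).

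Origin, with 4 libraries on each side, was tested over the 4 treatments with edgeR's quasi-likelihood test and treatment as a block. Of 13353 genes tested, 0 were called at an adjusted p under 0.05 (0.0% of genes), 273 had an unadjusted p under 0.05, and DESeq2 with the same design called 274 genes. Of the 8 members tested, 0 were called by either tool, 0 had an unadjusted p under 0.05 with edgeR and 1 did with DESeq2 (Ebf1). Pax5 did not pass the filter on low counts. The log2 differences, maternal over recipient, ran from -3.96 for Dntt to 4.05 for Ebf1, each with an adjusted p of 1.00 by edgeR. The levels overlapped between origins for all 9 genes. Ebf1 spanned 0.697 to 44.4 CPM in maternal and 0.103 to 6.66 CPM in recipient libraries, and Dntt 0 to 8.36 CPM and 0.227 to 100.2 CPM.

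The other genes most like the members in pattern were Zfp523 (r = 0.96), Ddx3y and C2cd5 for Rag1, and Nebl (r = 0.99), H2-Ea and Impa1 for Rag2. Ddx3y is Y-linked, and it was at 0 CPM in both uninjected libraries, as Rag1 was. For Dntt they were Trbv15 (r = 0.98), Slx1b and Enkd1, for Vpreb3 B3gnt5 (r = 0.97), Ercc6 and Pxdc1, and for Ebf1 Rnf122 (r = 0.97), Ercc6 and Wdr47. Likeness was measured over 8 libraries and 12045 genes, so high values also arise without any link between genes.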

How the data were processed

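RNA of sorted maternal and recipient cells was sequenced in 8 libraries, 1 per origin and treatment. The authors deposited an estimated count per gene and library, made with the nf-core pipeline and fractional as salmon writes it, whereas the study's methods name featureCounts; the submitters' processing notes name GRCm39, StringTie and bcl2fastq. The authors also deposited a MiXCR table per library, whose clone count gives the reads per clonotype and whose clone fraction divides this by the sum over the table. All 8 columns were mapped to samples and 0 were left out.

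Counts were rounded to whole numbers. TMM factors over 8 libraries and log2 fold changes came from edgeR 4.0.16 (R 4.3.3), with the exact test's estimate at the dispersion of 0.4 used in the study and no p-value. Intervals of ratios were exact conditional binomial intervals. Origin was tested with glmQLFit and glmQLFTest, filterByExpr and Benjamini-Hochberg adjustment over all genes, with DESeq2 1.42.0 as an alternative. The p-values measure the spread between these pooled libraries. Scripts were tested on simulated data first. Inserted bases were the gaps between V, D and J alignments given by MiXCR, overlaps counting as 0, over clonotypes with all junction points resolved. Likeness was Pearson's r of log2(CPM + 1). Positions came from GENCODE on GRCm39, in which 97.99% of identifiers matched. Tables were handled in Python 3.11.15 with pandas 2.3.3 and numpy 2.4.6, intervals came from scipy 1.17.1 and plots from matplotlib 3.10.9.

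All 9 members were named in every library, with the 3 genes most like each and, from the pathway lists, genes reaching 10 CPM in a library. Members and lists were chosen with earlier results of these data known, and H2-Ea, H2-Eb1, the shared CDR3 sequences and the promoter motifs were examined after values were seen. Lists of plasma cell, leukocyte, erythroid and hepatocyte markers were also summed. The erythroid marker Ahsp was not matched. Some genes of the lists are not reported here. Alternatives were library-size scaling, DESeq2 size factors, a filter of 10 counts, unrounded counts, a prior count of 2, a 2-fold rule, other clonotype filters, a pseudocount of 0.1 CPM, Spearman's rho, no block, no filter and leaving out each treatment.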

Additional observations from a re-analysis of the deposited data

Results flagged for a closer look

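In 8 cases, over 4 members, a gene was called higher in cells of one origin and lower in cells of the other under the same contrast. Pairs in which either value was inside 4-fold are not counted here. The share of all genes with such opposite calls was not computed. In the comparisons used here, 7.15% to 47.2% of all genes were called in a given direction. With 1 library per group the differences between origins were not tested. Against uninjected pups, the log2 fold change of Dntt was -6.40 in maternal and 3.92 in recipient cells after DC control mIUT, and -6.78 and 8.77 after DC control pIUT. Vpreb3 was at -2.65 and 5.04 after DC control pIUT and at -3.84 and 8.19 after DC-depleted pIUT. In the latter group Ebf1 was at -5.99 and 5.98, and Pax5 at -5.51 and 3.0, the last resting on 10 counts against 1. Between DC-depleted and DC control pIUT, Dntt was at 7.14 in maternal and -3.60 in recipient cells, and Ebf1 at -4.87 and 2.80. Values against a library with 0 counts are bounds. In the recipient uninjected library the counts were 11 for Dntt, 0 for Vpreb3, 5 for Ebf1 and 1 for Pax5.

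The Y-linked genes summed to 118 CPM in maternal cells of DC control mIUT, 29.3 CPM in those of DC control pIUT and 30.0 CPM in those of DC-depleted pIUT, against 0 in uninjected maternal cells.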

How the results depend on the processing

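Of 79 fold changes past 4-fold, recomputed under 5 alternatives each (395 values), 0 took the other sign and 3 fell inside 4-fold (Rag1 in maternal cells of DC control mIUT and Cd79b in recipient cells of DC control pIUT with library-size scaling, and Pax5 in recipient cells of DC-depleted pIUT with a prior count of 2, all against uninjected pups), with a largest move of 1.48 on the log2 scale. With library-size scaling, the members called lower in recipient cells of DC control pIUT against uninjected pups numbered 1 in place of 2, those called higher in maternal cells of DC control mIUT 2 in place of 3, and those lower in maternal than in recipient cells of DC-depleted pIUT 6 in place of 5. With a 2-fold rule, the members called lower numbered 3 in place of 1 between DC-depleted and DC control pIUT in maternal cells, 2 in place of 1 between DC-depleted pIUT and uninjected pups in recipient cells, and 8 in place of 5 between maternal and recipient cells of DC-depleted pIUT. It added 1 member to 4 other counts. DESeq2 called 274 genes between origins where edgeR called 0. Without the replicate block edgeR also called 0 genes and 0 members, with 121 genes at an unadjusted p under 0.05 in place of 273. Leaving out a treatment, 0 genes and 0 members were called each time, with 136 to 738 genes at an unadjusted p under 0.05. The cause of these changes was not tested. Of the 3 genes most like each member, 0 or 1 remained with Spearman's rho and 1 to 3 with a pseudocount of 0.1 CPM. Where at least 10 clonotypes were left, shares of IGH and TRB clonotypes without a V-D insertion stayed within their intervals under 3 alternatives. These were weighting by clone count, a clone count of at least 2 and productive clonotypes only. Libraries with fewer clonotypes had no alternative value. Weighted by clone count, IGK shares moved outside their intervals in uninjected maternal (95.6%) and recipient (98.8%) cells and in recipient cells of DC-depleted pIUT (96.01%). With a clone count of at least 2, the first was 87.0% and the IGH D-J share in recipient cells of DC-depleted pIUT was 94.7%. Fewer than 10 IGH clonotypes in maternal cells of DC control mIUT and DC control pIUT limit their shares.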

Other observations

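Markers of other cells differed between libraries that the comparisons of members set side by side. The summed level of 5 erythroid genes was 134 CPM in recipient cells of DC control mIUT, in which Slc4a1 was at 0, and between 13657 and 130511 CPM in the other 7 libraries. The summed level of 5 hepatocyte genes was 10177 CPM in uninjected recipient cells, most of it Afp (9055 CPM), and 4239 CPM in maternal cells of DC control mIUT, most of it Apoa1 (3824 CPM). It was between 4.98 and 553 CPM in the other 6. The 7 plasma cell genes summed to between 126 and 644 CPM. Of these, Jchain was at 25.5 CPM in uninjected maternal cells, at 0.465 and 2.59 CPM in recipient cells of DC control pIUT and DC-depleted pIUT, and at 0 in the other 5 libraries. Mzb1 was at 4.61 CPM or more and Xbp1 at 79.1 CPM or more in all 8 libraries. The 4 leukocyte genes summed to 477 CPM in maternal cells of DC-depleted pIUT and to between 1466 and 10140 CPM elsewhere.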
